A study of Mus musculus with 81 samples.

Results

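TCRBV31, also named Vbeta14, is 1 of 35 V segments named in TCRβ rearrangements from 81 libraries of mouse blood and tumor. Every row whose V segment was called TCRBV31 was taken, which gave 30612 of 581514 rows, and all 30612 were named TCRBV31-01, allele 01. Of these, 21766 rows (31373 templates) were in-frame, 8692 rows (11493 templates) were out-of-frame and 154 rows (188 templates) carried a stop codon. A row is 1 distinct nucleotide rearrangement in 1 library, and a template is 1 counted copy of it. The segment was found in 81 of 81 libraries.

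A TCRβ gene is assembled in the thymus from a V, a D and a J segment, and the bases added or trimmed at the joins make the CDR3, the loop that touches peptide. Most mouse V segments lie upstream of the D, J and constant genes and join by deletion of the DNA between. TCRBV31 lies downstream of the constant genes in the opposite orientation and joins by inversion, so the DNA between stays in the chromosome. Out-of-frame joins persist in T cells whose other allele encodes the receptor, and they carry the frequencies of joining without selection on the protein. In the RefSeq gene order of assembly GRCm38.p6, Trbv31 on chromosome 6 is the last of 53 listed Trb segments and genes, directly after Trbc2, while the 34 other listed Trbv genes precede Trbd1.

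The mice were female Pep Boy mice (B6.SJL-Ptprc<a> Pepc<b>/BoyJ) that received naive OT-1 T cells, transgenic CD8+ cells that recognise an ovalbumin peptide, and EG7.OVA cells, an ovalbumin-expressing derivative of the EL4 lymphoma line. In the treatment experiment, tumor-bearing mice were given 1e6 OT-1 cells and then 1e9 unmodified mouse red blood cells (mRBC-CTRL) or modified ones. The modified cells (mRBC-OVA-4-1BBL-IL-12) carry peptide-MHC, a costimulatory ligand and a cytokine, and were given at a dose of 2.5e8 or 1e9. Blood taken minutes after the OT-1 transfer (day 0), blood of day 7 and tumor of day 7 came from 15 mice. In the rechallenge experiment, 7 mice cured by 1e6 OT-1 cells and the 2.5e8 dose were bled 1 day before (day 65) and 7 days after (day 73) EG7.OVA rechallenge, and again 1 day before and 9 days after EL4 challenge. Age-matched naive mice (n = 5) received 5e5 OT-1 cells and were bled on days 65 and 73 around a first EG7.OVA challenge. All mice received OT-1 cells. Blood and tumor DNA was not sorted, and a smaller number of T cells of one kind cannot be told apart from a larger number of the others in a share.

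In-frame shares were taken without the CDR3s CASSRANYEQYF (OT-1) and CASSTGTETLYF (treated as the lymphoma's own), whose templates made up 0 to 79.5% of in-frame templates in blood and 24.7% to 87.3% in tumors. The remaining in-frame templates numbered 482 to 22115 per blood library and 832 to 23605 per tumor library, of which TCRBV31 held 23 to 1213 in blood and 15 to 1991 in tumor. The library of 482 templates, day 7 blood of 1e9 mouse 5, was the smallest. One label conflicts with itself: the description of the cured mouse 2 sample of day 73 says mouse 1, and its animal code, which was followed, says mouse 2. That library shared at most 36 in-frame rearrangements with a library of cured mouse 2 and at most 9 with one of cured mouse 1, but as many as 33 with a library of another mouse, so the count does not settle its identity. Of the 81 libraries 20 shared more with a library of another mouse than with one of their own, all 10 of the naive mice among them.

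The CDR3 start is encoded by V bases of the same read that gave the segment call, so it describes the segment and is no independent check. The CDR3 began with CAW in 96.7% of in-frame TCRBV31 rows and in 0.00393% of the in-frame rows of other segments (14 rows), where CAS is the usual start. It began with CAWS in 78.3% and with CAWSL in 41.95% of TCRBV31 rows, and in none of the rows of other segments in these files. The rearrangements below are shown because they carry the results that follow: the largest clones of a control, a 2.5e8 and a 1e9 tumor, the largest clone of a cured mouse, 2 CDR3s found in many mice, and the largest out-of-frame clone of a tumor. Each is the deposited 87-base read, 5′ to 3′, which stops 1 codon short of the CDR3 end; the bases between the last V base and the first J base are in capitals.
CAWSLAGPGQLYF: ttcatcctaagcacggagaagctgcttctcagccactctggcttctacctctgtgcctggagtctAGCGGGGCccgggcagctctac
2.5e8 mouse 1 clone: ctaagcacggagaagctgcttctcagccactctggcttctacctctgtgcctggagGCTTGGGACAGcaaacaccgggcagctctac
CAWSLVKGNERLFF: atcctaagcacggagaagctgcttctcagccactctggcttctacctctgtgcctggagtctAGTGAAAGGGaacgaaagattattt
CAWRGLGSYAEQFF: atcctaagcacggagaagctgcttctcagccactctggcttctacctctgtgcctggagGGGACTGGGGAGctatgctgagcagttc
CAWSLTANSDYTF: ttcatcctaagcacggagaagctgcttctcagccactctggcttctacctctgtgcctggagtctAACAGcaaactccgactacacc
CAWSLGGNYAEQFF: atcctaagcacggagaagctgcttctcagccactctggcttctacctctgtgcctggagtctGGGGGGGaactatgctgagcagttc
out-of-frame join: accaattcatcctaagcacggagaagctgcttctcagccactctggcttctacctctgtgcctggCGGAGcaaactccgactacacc
The shared lower-case stretch ending in tgtgcctggagtct is the TCRBV31 end, and the codons tgt gcc tgg encode the CAW start. It was untrimmed in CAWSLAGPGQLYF, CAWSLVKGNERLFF, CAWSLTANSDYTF and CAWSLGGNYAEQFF, had lost 3 bases in the 2.5e8 mouse 1 clone and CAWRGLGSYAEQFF and 5 bases in the out-of-frame join. In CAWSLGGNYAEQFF the 7 junction bases were all assigned to TCRBD02, with 0 N bases on either side.

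Over the 66 blood libraries TCRBV31 held a mean of 5.52% of in-frame templates, rank 8 of the 23 V segments with a mean share of at least 0.1%. Its neighbours in that order were TCRBV13-01 at 5.64% and TCRBV01-01 at 5.52%, both within the spread of TCRBV31 over libraries (SD 0.746 percentage points). The segments whose shares ran most like it over the 66 blood libraries were TCRBV01-01 (Spearman's rho 0.44), TCRBV03-01 (0.38) and TCRBV20-01 (0.21). The libraries share mice, and all shares of a library add up to a whole, so these values are descriptions.

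By group, the mean share ran from 2.30% in tumors of the 2.5e8 dose to 6.12% in day 0 blood of the mRBC-CTRL mice. Day 0 blood held 6.12% ± 0.457 (SD, n = 5) in mRBC-CTRL mice, 5.79% ± 0.545 (n = 5) in mice about to receive 2.5e8 cells and 6.02% ± 0.903 (n = 4) in mice about to receive 1e9 cells. Naive mice held 5.93% ± 0.237 on day 65 and 5.29% ± 0.403 on day 73 (n = 5 each). Cured mice held 5.66% ± 0.4658 (day 65) and 6.09% ± 0.871 (day 73) around EG7.OVA, and 5.44% ± 0.418 before and 5.38% ± 0.205 after EL4 (n = 7 each). In the order of the 15 group means, 14 of 14 neighbouring pairs lay closer than the larger of their SDs. The plot of shares by library shows the narrow range in blood beside the wide range in tumors.

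**Figure D1:**
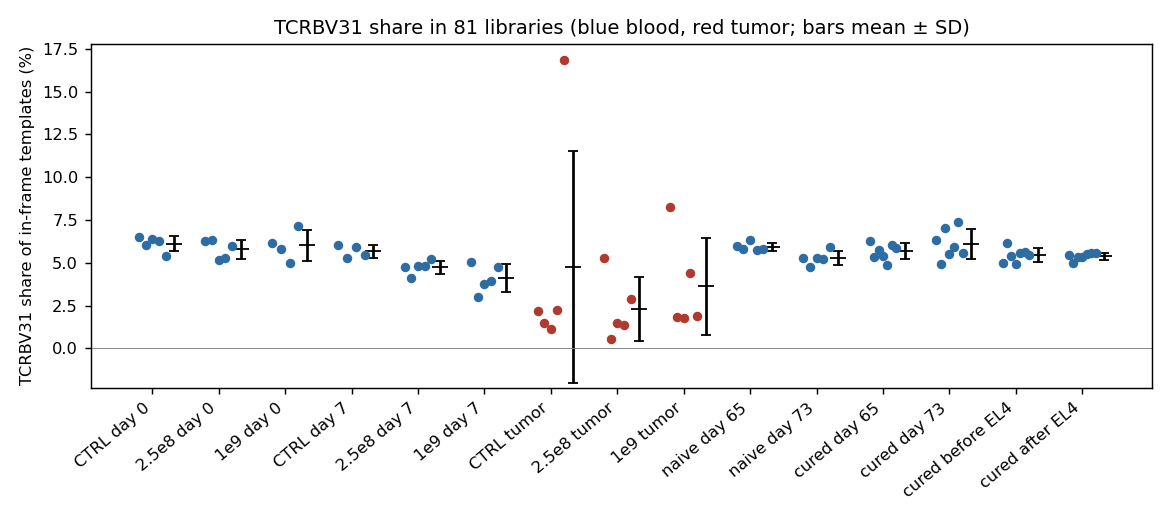
TCRBV31 share of in-frame templates, in percent, in each of the 81 libraries (points; blue blood, red tumor) by group, with the group mean ± SD beside the points. Blood groups had means between 4.11% and 6.12%, and the tumor points spread from 0.547% to 16.8%; the lower arm of the control tumor bar passes below 0 because 1 tumor lies far above the others.

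The first question was whether the treatment changed the segment's share in blood. On day 7, the mRBC-CTRL mice 2 to 5 held 6.06%, 5.28%, 5.90% and 5.44% of in-frame templates. The mice given 2.5e8 cells held 4.74%, 4.12%, 4.79%, 4.83% and 5.19%. The mice given 1e9 cells held 5.04%, 3.01%, 3.79%, 3.94% and 4.77%, of which mouse 5 rested on 23 and mouse 2 on 48 TCRBV31 templates. Every treated mouse lay below every control mouse. Against mRBC-CTRL mice the share differed by -1.56 percentage points at 1e9 and by -0.93 at 2.5e8. Each gave p = 0.0159 in a 2-sided exact permutation test (n = 5 and 4), and adjusted p = 0.365 over 276 tests, 23 segments in 12 comparisons. At an unadjusted p under 0.05, 13% of the 23 segments differed at 1e9 and 30.4% at 2.5e8. At each dose 2 of the 23 segments, TCRBV31 among them, had a p as small as this or smaller. After adjustment 0 segments passed in any of the 12 comparisons of template shares. The smallest possible p in day 7 blood was 0.00794, and 1 segment alone could not pass an adjustment over 276 tests at that p. Not passing therefore does not show an unchanged share. By distinct rearrangements the differences were -0.92 percentage points (p = 0.0397, adjusted p = 0.391) and -0.44 (p = 0.19, adjusted p = 0.588) in the same exact tests. OT-1 and lymphoma templates, left out above, made up 48.1% to 79.5% of in-frame templates in day 7 blood at 1e9, 3.12% to 7.73% at 2.5e8 and 2.17% to 7.58% in mRBC-CTRL mice, and their part in the difference was not tested. With those templates kept in the denominator, both differences passed, at -3.99 and -0.97 percentage points (exact permutation tests, adjusted p = 0.0371 each). Under that denominator 65.2% of the 23 segments were called lower at 1e9 and 8.70% at 2.5e8, so the call at 1e9 was common to most segments.

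Within mice, the share moved from day 0 to day 7 by -0.35 percentage points ± 0.558 (SD) in mRBC-CTRL mice, lower in 2 of 4, by -1.05 ± 0.778 at 2.5e8, lower in 5 of 5, and by -2.15 ± 0.867 at 1e9, lower in 4 of 4. The change at 1e9 minus that in mRBC-CTRL mice was -1.79 percentage points (2-sided exact permutation test, p = 0.0571, adjusted p = 0.401, n = 4 and 4, smallest possible p 0.0286). In that comparison 8.70% of the 23 segments had an unadjusted p under 0.05.

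In tumors the share varied widely between mice. The mRBC-CTRL tumors 1 to 5 held 2.16%, 1.46%, 1.12%, 2.25% and 16.8%. The tumors of the 2.5e8 dose held 5.26%, 0.547%, 1.47%, 1.35% and 2.85%, and those of the 1e9 dose 8.27%, 1.80%, 1.76%, 4.39% and 1.88%. The groups overlapped, and the highest tumor of all belonged to the control group. Against mRBC-CTRL tumors the share differed by -1.15 percentage points at 1e9 (2-sided exact permutation test, p = 0.881, adjusted p = 0.961) and -2.47 at 2.5e8 (p = 0.667, adjusted p = 0.88), n = 5 each. In each of these comparisons 4.35% of segments had an unadjusted p under 0.05. Both differences turned positive without mRBC-CTRL tumor 5, to 1.87 and 0.55 percentage points.

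Counted as distinct rearrangements, which ignores clone size, TCRBV31 was scarcer in tumor than in blood. It made up 3.70% ± 0.368 of in-frame rearrangements in mRBC-CTRL tumors, 3.52% ± 0.814 at 2.5e8 and 3.58% ± 0.844 at 1e9, against 5.77% ± 0.259, 5.32% ± 0.553 and 4.85% ± 0.744 in day 7 blood of the same arms. The 14 mice with both libraries had a mean of 3.60% in tumor and 5.28% in blood, lower in tumor in 14 of 14. The difference was -1.68 percentage points (sign-flip permutation test with 100000 resamples, p = 0.00011, adjusted p = 0.0152), where 26.1% of the 23 segments passed and 47.8% had an unadjusted p under 0.05. By templates the difference was -1.12 percentage points and did not pass (permutation test, p = 0.361, adjusted p = 0.673, lower in 10 of 14 mice), against 34.8% of segments with an unadjusted p under 0.05, but it was -2.80 and passed with all in-frame templates in the denominator (permutation test, adjusted p = 0.00677), as did 78.3% of segments in the lower direction. Without mRBC-CTRL mouse 5 the difference by templates was -2.08 (permutation test, p = 0.0112, adjusted p = 0.313), and without the largest TCRBV31 and the largest other rearrangement of each library it was -2.41 (p = 0.00103, adjusted p = 0.116). Tumors held 13 to 148 distinct in-frame TCRBV31 rearrangements, with a median of 64.

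No change in share around tumor challenge passed the adjusted threshold. In cured mice it lay between 4.90% and 6.26% on day 65 (median 5.76%) and between 4.93% and 7.36% on day 73 (median 5.95%), higher on day 73 in 5 of 7 mice. In that comparison 4.35% of segments had an unadjusted p under 0.05. The mean change was +0.43 percentage points ± 0.749 (2-sided exact sign-flip test, p = 0.203, adjusted p = 0.544, n = 7). A sign-flip test of 7 mice gives no p below 0.0156, so 1 segment alone could not pass the adjustment. Naive mice 1 to 5 went from 5.99%, 5.78%, 6.31%, 5.73% and 5.83% on day 65 to 5.29%, 4.77%, 5.27%, 5.21% and 5.90% on day 73, lower in 4 of 5, by -0.64 percentage points ± 0.453 (exact sign-flip test, p = 0.125, adjusted p = 0.494, smallest possible p 0.0625). The change in cured minus that in naive mice was +1.07 percentage points (2-sided exact permutation test, p = 0.0215, adjusted p = 0.398, n = 7 and 5). In that comparison 8.70% of segments had an unadjusted p under 0.05, and TCRBV31 had the lowest p of the 23 segments. The smallest possible p was 0.00126. By distinct rearrangements the difference in change was +1.38 (exact permutation test, p = 0.00758, adjusted p = 0.171), with -0.45 on day 65 and +0.93 on day 73, and it was +2.71 after thinning to the smallest library (p = 0.0379, adjusted p = 0.664). It turned to -0.85 with all in-frame templates in the denominator, where 39.1% of segments were called lower and TCRBV31 was not (adjusted p = 0.242, exact permutation test), and to -0.10 without rearrangements of 1 template. At a single time, cured minus naive was -0.27 percentage points on day 65 (exact permutation test, p = 0.271, adjusted p = 0.605) and +0.80 on day 73 (p = 0.0896, adjusted p = 0.461), with 13% of segments at an unadjusted p under 0.05 on each day. Around EL4 the share of cured mice ran from 4.91% to 6.14% before (median 5.44%) and from 4.98% to 5.58% after the challenge (median 5.43%), a change of -0.05 percentage points ± 0.54 (exact sign-flip test, p = 0.828, adjusted p = 0.948, n = 7).

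The reading frame separates rearrangements that can be selected as protein from those that cannot. Over all blood libraries of a mouse, TCRBV31 made up 3.97% to 5.21% of distinct out-of-frame rearrangements (median 4.60%) and 5.23% to 7.08% of distinct in-frame ones (median 5.96%). The in-frame share was higher in 27 of 27 mice, with every in-frame value above every out-of-frame value. The means were 5.93% ± 0.386 and 4.53% ± 0.343, a difference of +1.39 percentage points ± 0.372 (sign-flip permutation test, p = 1e-05, the smallest that 100000 resamples give; adjusted p = 1.64e-05 over 23 segments). Most segments differed: 52.2% were higher and 30.4% lower in-frame. TCRBV31 had the 4th highest difference, with TCRBV03-01 the highest at +2.18 and TCRBV24-01 the lowest at -3.98 percentage points.

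The in-frame excess was smaller in the tumors. Among the 15 tumors TCRBV31 made up 2.21% to 5.15% of out-of-frame rearrangements (median 3.69%) and 2.43% to 4.82% of in-frame ones (median 3.61%), higher in-frame in 6 of 15. The means were 3.60% ± 0.662 in-frame and 3.63% ± 0.839 out-of-frame, a difference of -0.03 percentage points ± 0.927 (sign-flip permutation test, p = 0.914, adjusted p = 0.914), in a comparison where 34.8% of segments were higher and 26.1% lower. In blood of the same 15 mice the difference was +1.33 percentage points ± 0.461. Tumor minus blood of the same mice was -1.35 percentage points ± 1.09, lower in 14 of 15 mice (permutation test, p = 0.00094, adjusted p = 0.0054). This was the lowest value among 23 segments, of which 8.70% passed with lower and 8.70% with higher values. Tumors held few out-of-frame TCRBV31 rearrangements, 6 to 91 with a median of 41, and leaving out each mouse in turn gave -1.56 to -1.23 percentage points. The tumor comparison was added after the blood values were known, and tumor and blood libraries also differed in depth and in clone sizes, whose part was not tested.

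**Figure D2:**
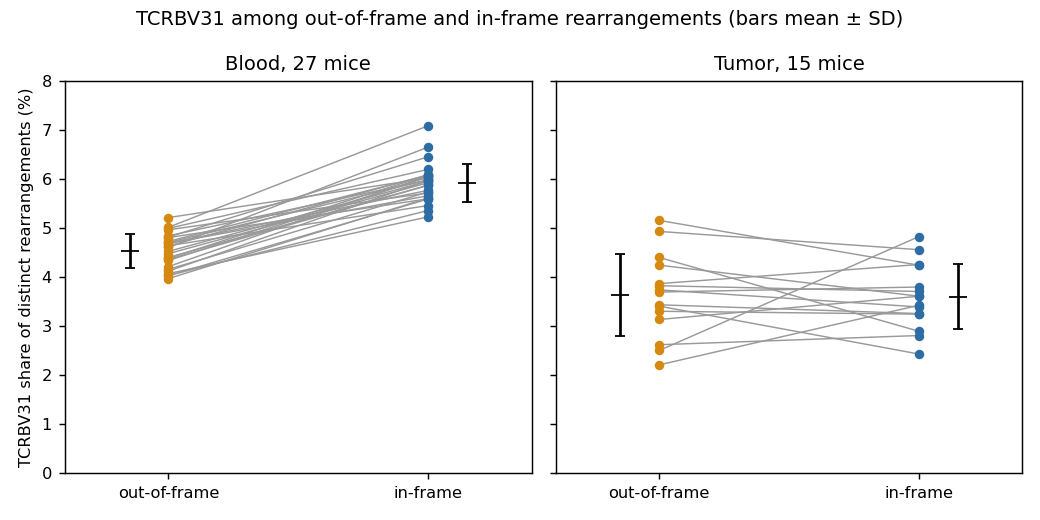
TCRBV31 share of distinct rearrangements, in percent, among out-of-frame (orange) and in-frame (blue) rearrangements of blood (left, 27 mice) and tumor (right, 15 mice). Lines join values of 1 mouse and bars give mean ± SD; lines rise in 27 of 27 mice in blood and in 6 of 15 in tumor.

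Joining itself was described from the D and J segments used, since each V segment can meet D1 joined to either J cluster or D2 joined to J2. J2, the downstream cluster, made up 59.7% ± 2.66 of in-frame TCRBV31 rearrangements against 63.7% ± 0.812 for all other V segments, lower in 25 of 27 mice (difference -3.92 percentage points, sign-flip permutation test, p = 1e-05, adjusted p = 1.65e-05). Among out-of-frame rearrangements it made up 61.0% ± 3.92 against 67.5% ± 1.32, lower in 26 of 27 mice (difference -6.53, permutation test, p = 1e-05, adjusted p = 1.65e-05). A lower J2 share was called for 40.9% of the 22 segments in-frame and for 45.5% out-of-frame, so the call is common among V segments. TCRBV31 stood 18th and 19th of 22 from the top.

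By J segment, the lower J2 share came mostly from TCRBJ02-07, the most used J, which made up 16.0% ± 1.27 of in-frame TCRBV31 rearrangements and 19.1% ± 0.521 of the others. TCRBJ02-04 stood at 7.12% ± 1.20 against 8.44% ± 0.391, TCRBJ02-02 at 5.13% ± 1.05 against 5.80% ± 0.339 and TCRBJ02-01 at 9.55% ± 1.47 against 9.80% ± 0.419. TCRBJ02-03 (9.58% ± 1.56 against 8.45% ± 0.346) and TCRBJ02-05 (12.4% ± 1.73 against 12.05% ± 0.356) were not below the other segments. In the J1 cluster TCRBJ01-02 stood at 8.21% ± 1.27 against 6.26% ± 0.236, TCRBJ01-04 at 8.20% ± 1.30 against 7.10% ± 0.391, TCRBJ01-06 at 3.97% ± 0.82 against 3.05% ± 0.271 and TCRBJ01-05 at 3.78% ± 1.11 against 3.29% ± 0.249. TCRBJ01-01 (11.0% ± 1.66 against 11.1% ± 0.518) and TCRBJ01-03 (5.15% ± 1.09 against 5.58% ± 0.308) lay close to the other segments. TCRBJ02-06 and TCRBJ01-07 were nearly unused, with 2 and 0 of the TCRBV31 in-frame rearrangements. Single J segments were not tested.

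TCRBD02 made up 43.2% ± 2.86 of in-frame TCRBV31 rearrangements with a named D, against 41.3% ± 0.833 for the others, higher in 21 of 27 mice (difference +1.93 percentage points, sign-flip permutation test, p = 0.00199, adjusted p = 0.00263, with 36.4% of segments higher). No D was named in 19.6% of in-frame TCRBV31 rearrangements and in 19.9% of the others. The pairing of D with J showed where the difference lay. D1 joined to J1 made up 34.9% ± 2.69 of TCRBV31 against 31.1% ± 0.741 of the others, D1 joined to J2 21.9% ± 2.14 against 27.6% ± 0.643, and D2 joined to J2 39.95% ± 2.99 against 38.1% ± 0.881. D2 called with J1, an order that joining by deletion does not make, stood at 3.29% ± 0.982 against 3.17% ± 0.223. The accuracy of the D calls was not tested here.

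Among J2 rearrangements alone, D1 was used in 20.8% ± 4.01 of out-of-frame TCRBV31 joins and in 31.4% ± 1.71 of the others. The values per mouse ran from 12.5% to 28.2% for TCRBV31 (median 21.3%) and from 28.3% to 35.1% for the others (median 31.7%), and did not overlap. The difference was -10.6 percentage points ± 3.79, lower in 27 of 27 mice (sign-flip permutation test, p = 1e-05, adjusted p = 5.12e-05). It was the lowest of 21 segments, of which 38.1% were called lower, with TCRBV13-02 next at -9.20 and TCRBV29-01 highest at +28.04 percentage points. Among in-frame joins the values were 35.4% ± 3.35 and 42.0% ± 0.98, a difference of -6.55, lower in 26 of 27 mice (permutation test, p = 1e-05, adjusted p = 5.12e-05), rank 20 from the top of 22 segments, of which 31.8% were called lower. Among J1 rearrangements the D1 share did not pass, at +0.67 percentage points in-frame (sign-flip permutation test, p = 0.116, adjusted p = 0.195, with 15.8% of segments higher) and +0.02 out-of-frame (p = 0.986, adjusted p = 0.986, with 25.0% higher). Kept to joins with at least 8 D bases, where the D is easier to tell, the difference among J2 joins was -7.73 out-of-frame and -6.05 in-frame. This measure was added after the D and J shares were seen.

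**Figure D3:**
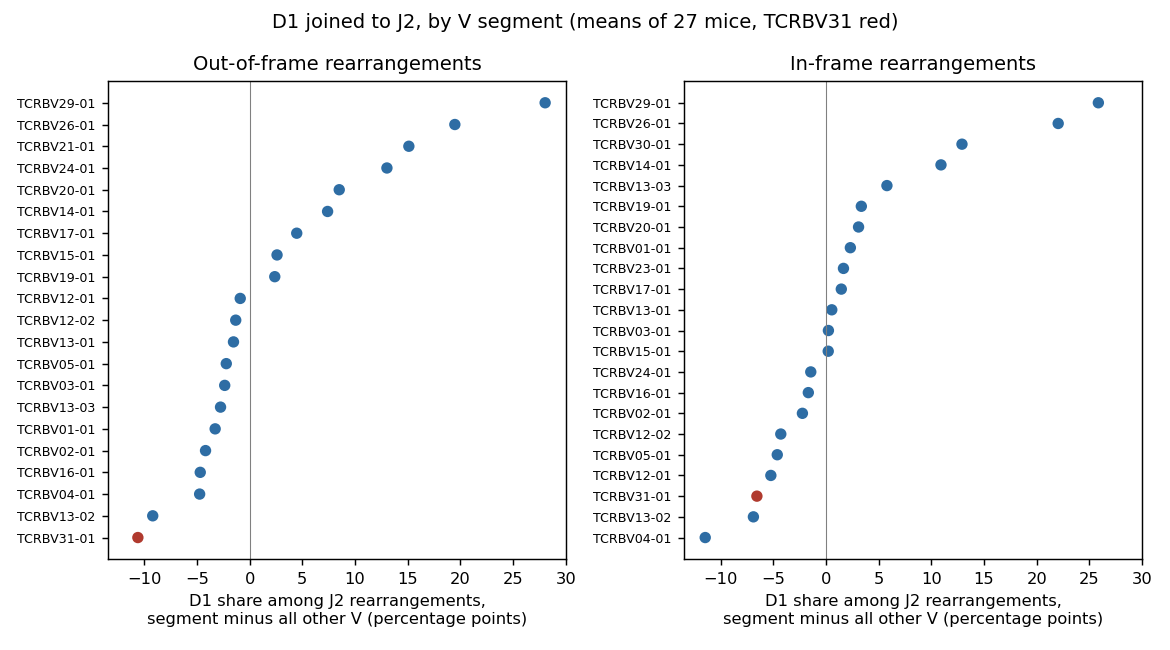
D1 share among J2 rearrangements of each V segment minus that of all other V segments, in percentage points (means of 27 mice), for out-of-frame (left, 21 segments) and in-frame rearrangements (right, 22 segments) of blood. TCRBV31 (red) is the lowest out-of-frame at -10.6 and the third from the bottom in-frame at -6.55.

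The V end of TCRBV31 was trimmed less than that of most segments. A mean of 1.62 bases ± 0.118 were deleted in its in-frame rearrangements against 2.69 ± 0.033 in the others, lower in 27 of 27 mice (difference -1.07, sign-flip permutation test, p = 1e-05, adjusted p = 1.65e-05, with 40.9% of 22 segments lower). Only TCRBV02-01 had a lower difference, at -1.18 bases. The V end was intact in 40.1% of in-frame TCRBV31 rearrangements, pooled over mice, and in 22.1% of the others. N bases, which are added without template, numbered 3.65 ± 0.143 against 3.40 ± 0.0439, higher in 26 of 27 mice (difference +0.25, permutation test, p = 1e-05, adjusted p = 1.65e-05), second to TCRBV24-01 at +0.65, and 31.8% of segments were higher. Among out-of-frame rearrangements the N base difference was +0.09 and did not pass (permutation test, adjusted p = 0.139).

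The CDR3 of TCRBV31 was short all the same. Its mean length was 41.0 bases ± 0.17 against 41.7 ± 0.0586, shorter in 27 of 27 mice (difference -0.77 bases, sign-flip permutation test, p = 1e-05, adjusted p = 1.65e-05), with 50.0% of 22 segments shorter and TCRBV31 at rank 17 from the longest. The commonest length was 42 bases, or 14 residues, in both, at 32.3% ± 2.58 of TCRBV31 and 30.8% ± 0.517 of other rearrangements. At 13 residues TCRBV31 held 24.3% ± 1.66 against 20.3% ± 0.661, and at 15 residues 17.97% ± 1.36 against 22.01% ± 0.442.

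**Figure D4:**
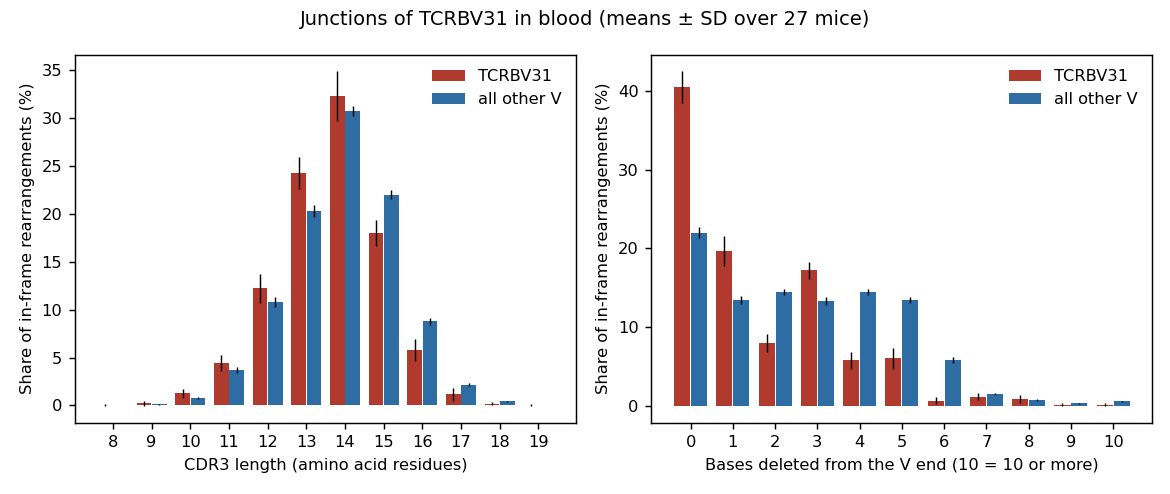
CDR3 length in residues (left) and number of bases deleted from the V end (right) as shares of distinct in-frame rearrangements in blood, in percent, for TCRBV31 (red) and all other V segments (blue); bars are means ± SD over 27 mice. TCRBV31 exceeds the others at 13 residues (24.3% against 20.3%) and at 0 deleted bases (40.5% against 22.02%).

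Most TCRBV31 CDR3s were seen in 1 mouse, a count that sampling depth limits. A mouse gave 165 to 2153 distinct in-frame TCRBV31 rearrangements in blood, and 77.8% of in-frame TCRBV31 rows had a single template. The files held 17002 distinct TCRBV31 CDR3s, of which 87.3% were found in 1 mouse, rank 17 of 23 segments on this measure (84.0% to 99.6%). Only 18 were found in at least 10 of 27 mice. The 5 most shared all began with CAWSL, the germline-encoded start: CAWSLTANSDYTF was in 16 mice, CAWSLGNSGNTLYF in 14, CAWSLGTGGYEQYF and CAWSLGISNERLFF in 13 each and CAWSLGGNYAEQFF in 12. Each was built from 8 to 14 different nucleotide rearrangements and reached at most 0.0628% of in-frame templates in a library. The most shared rearrangement of each carried 5 junction bases in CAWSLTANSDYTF and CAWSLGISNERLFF, 6 in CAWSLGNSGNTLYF, 7 in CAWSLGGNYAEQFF and 13 in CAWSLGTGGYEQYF.

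The clones were small in most blood libraries. The largest TCRBV31 clone of a library held 0.0216% to 0.115% of in-frame templates in day 0 blood, 0.0484% to 0.0942% in naive mice on day 65 and 0.0407% to 0.0766% on day 73. In cured mice it held 0.0476% to 0.192% on day 65 (median 0.0591%) and 0.0462% to 0.242% before EL4 (median 0.051%), the highest values coming from mouse 6. Of in-frame TCRBV31 rows, 77.8% had a single template. In the groups' largest clones of day 0 and naive blood, each of 3 to 5 templates, the same rearrangement was not counted again in other libraries of the mouse: the TCRBJ01-05 clone of 1e9 mouse 2 had 5 of 4333 templates on day 0, and 0 of 1595 on day 7, which allows a share of up to 0.188%. Likewise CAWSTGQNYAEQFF of mRBC-CTRL mouse 3 and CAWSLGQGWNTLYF of 2.5e8 mouse 4 had 3 templates on day 0 and 0 later. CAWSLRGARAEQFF of naive mouse 3 had 3 templates on day 65 only, and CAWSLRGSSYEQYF of naive mouse 4 had 4 on day 73 only. These counts are too low to tell a lost clone from an unsampled one.

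Between days 0 and 7 of the treatment experiment, 9 of 17 tested TCRBV31 rearrangements rose and 0 fell in 6 of 13 mice (2-sided Fisher's exact tests, Benjamini-Hochberg adjustment within the mouse). Over all V segments 54.7% of 479 tested rearrangements rose and 2.71% fell, so TCRBV31, with 3.44% of the risen and 3.55% of the tested rearrangements, rose at a rate close to this background. Fisher's test compares 2 libraries and holds no spread between bleeds. A rearrangement was tested at 5 or more templates over the 2 libraries, so one absent from 1 library entered only through the other. Filter and test thus used the same counts, and most of the risen TCRBV31 rearrangements had 0 templates on day 0. The most significant was the TCRBJ02-02 clone of 2.5e8 mouse 1 printed above, with 1 of 7417 templates on day 0 and 41 of 3668 on day 7, or 0.0135% and 1.12% (Fisher's exact test, adjusted p = 6.1e-18). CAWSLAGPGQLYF in mRBC-CTRL mouse 5 had 0 of 4983 templates on day 0, which allows up to 0.0602%, and 25 of 5002 on day 7, or 0.5% (95% Wilson interval 0.339% to 0.737%; Fisher's exact test, adjusted p = 1.97e-07). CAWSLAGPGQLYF was picked as the largest TCRBV31 clone of its group in day 7 blood and in tumor. The largest clone of day 7 blood at 1e9 by share, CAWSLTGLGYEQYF of mouse 5 at 0.622%, rested on 3 of 482 templates.

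From day 7 blood to tumor, 21 of 80 tested TCRBV31 rearrangements were higher in tumor and 0 lower, in 8 of 14 mice, against 30.5% of 2279 rearrangements of all segments higher and 3.55% lower (Fisher's exact tests, adjusted within the mouse). TCRBV31 made up 3.02% of those called higher and 3.51% of those tested. The filter of at least 5 templates used the same counts as the test. With the OT-1 and lymphoma templates kept in the denominator, 9 were higher and 1 lower. The share over all segments was not taken under that denominator, so these counts have no background beside them. In mRBC-CTRL tumor 5, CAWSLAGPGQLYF held 1282 of 11822 templates, 10.8% (Wilson interval 10.3% to 11.4%), against 0.5% in day 7 blood (Fisher's exact test, adjusted p = 7.69e-164). It was the largest clone of that tumor after OT-1 and the lymphoma CDR3 were left out. Another TCRBJ02-02 clone of TCRBV31 stood there at 3.798% (0.2% in blood, Fisher's exact test, adjusted p = 6.6e-54). In 1e9 tumor 1, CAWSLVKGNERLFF held 5.38% against 0.58% in blood (Fisher's exact test, adjusted p = 4.57e-38). In 2.5e8 tumor 1, the clone printed above held 3.93% against 1.12% in blood (Fisher's exact test, adjusted p = 3.92e-19). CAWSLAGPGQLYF, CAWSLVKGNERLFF and the 2.5e8 mouse 1 clone were picked as the largest TCRBV31 clone of their tumor group. A high share in tumor is what they were picked for, so these tests are no independent support. The same nucleotide rearrangements of these clones of 1e9 mouse 1 and 2.5e8 mouse 1 also appeared as 1 template each in the tumor library of mouse 2 of the same arm.

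**Figure D5:**
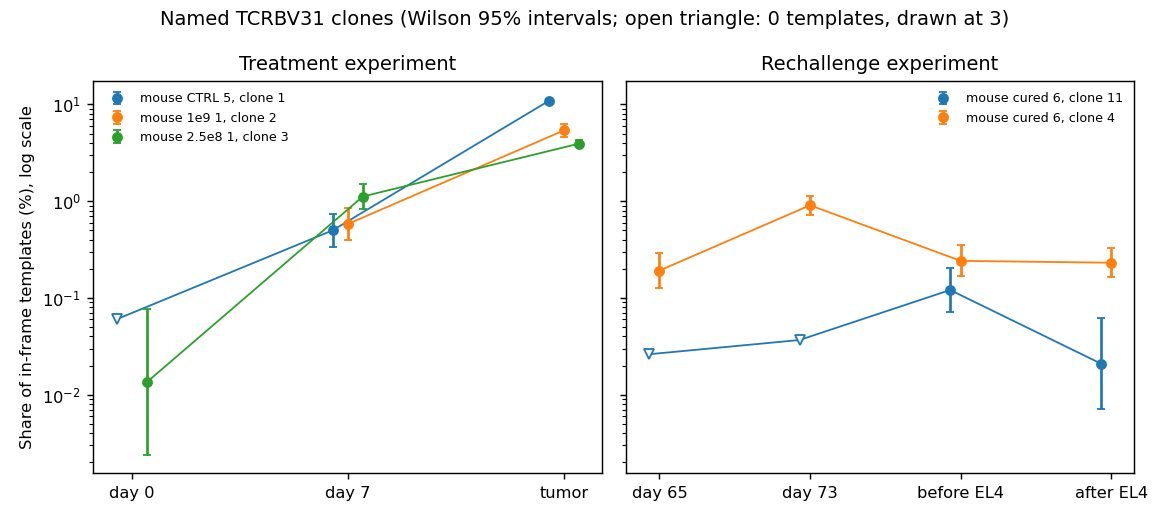
Share of in-frame templates, in percent on a log axis, of named TCRBV31 clones in successive libraries of single mice, with Wilson 95% intervals; an open triangle marks 0 templates, drawn at 3 templates. Left, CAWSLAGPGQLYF (clone 1, mRBC-CTRL mouse 5), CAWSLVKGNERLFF (clone 2, 1e9 mouse 1) and the 2.5e8 mouse 1 clone (clone 3), all highest in tumor at 10.8%, 5.38% and 3.93%. These clones were picked as the largest TCRBV31 clone of their tumor group. Right, cured mouse 6, where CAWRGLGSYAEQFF (clone 4) was highest on day 73 at 0.908% and a TCRBJ02-05 clone (clone 11) before EL4 at 0.121%. Clone 4 was picked for its size and its change from day 65 to day 73, and clone 11 for its change around EL4.

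The largest TCRBV31 clone of a tumor held from 0.0805% to 10.8% of in-frame templates and 7.20% to 74.7% of the TCRBV31 templates. In 4 of the 15 tumors this clone used TCRBJ02-02, namely in mRBC-CTRL tumor 5, 2.5e8 tumor 1 and 1e9 tumors 4 and 5. TCRBJ02-02 made up 87.4%, 75.5%, 60.2% and 31.5% of TCRBV31 templates in those tumors and 0 to 18.3% in the other 11, with a median of 5.56% over all 15. In blood it made up 0 to 27.01% of TCRBV31 templates with a median of 4.49%. Among other V segments it made up 1.37% to 5.53% of tumor templates and 3.62% to 6.54% of blood templates. By distinct rearrangements the TCRBJ02-02 share of TCRBV31 had a median of 6.90% in tumors and 5.10% in blood. This J segment was singled out after its values were seen, and no test was made.

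In cured mice, 7 of 13 tested TCRBV31 rearrangements rose from day 65 to day 73 and 0 fell, in 4 of 7 mice, where 26.4% of 193 rearrangements of all segments rose and 1.04% fell (Fisher's exact tests, adjusted within the mouse). TCRBV31 gave 13.7% of the risen and 6.74% of the tested rearrangements, on small numbers. Most of the risen TCRBV31 rearrangements came from mice 4 and 6, and rearrangements of the same mouse are not replicates. Of TCRBV31, 4 were called when at least 10 templates were asked for, and 4 with all in-frame templates as the denominator. The share over all segments was not taken under either setting. Here too the filter of at least 5 templates used the counts that were tested, and most of the risen had 0 templates on day 65. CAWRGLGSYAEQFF of mouse 6 had 22 of 11446 templates on day 65, 74 of 8154 on day 73, 28 of 11579 before and 33 of 14264 after EL4, or 0.192%, 0.908%, 0.242% and 0.231% (Fisher's exact test, adjusted p = 4.37e-11 for day 73 against 65). Its day 73 interval (0.724% to 1.14%) lay above those of the other 3 bleeds, and it was the largest TCRBV31 clone of the cured mice in each of the 4 bleeds. It was picked for its size and for the lowest adjusted p of day 73 against 65, so neither is independent support. The intervals hold counting error only, within mouse 6. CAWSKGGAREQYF of the same mouse went from 0.122% to 0.711% (Fisher's exact test, adjusted p = 3.07e-10). In naive mice no TCRBV31 rearrangement reached 5 templates over days 65 and 73, so 0 were tested, while 15.7% of 51 rearrangements of other segments rose and 21.6% fell.

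Around EL4, 0 of 15 tested TCRBV31 rearrangements of cured mice rose and 4 fell, in 3 of 7 mice, where 8.36% of 383 rearrangements of all segments rose and 14.9% fell. The most significant was a TCRBJ02-05 clone of mouse 6, with 14 of 11579 templates before and 3 of 14264 after the challenge (Fisher's exact test, adjusted p = 0.0129), and none on days 65 and 73, which allows up to 0.0262% and 0.0368%. With at least 10 templates asked for, 1 was called, and the share over all segments was not taken under that setting. Filter and test used the same counts here as well.

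Out-of-frame TCRBV31 rearrangements also reached high counts in tumors, carried by cells whose receptor is encoded elsewhere. The largest, joined to TCRBJ01-02 and printed above, had 360 templates in 2.5e8 tumor 3, or 8.45% of its out-of-frame templates, and 10 in day 7 blood of that mouse. The largest in blood, a TCRBJ01-03 join in 1e9 mouse 3, had 52 templates on day 7, or 2.08% of out-of-frame templates, and 2 in the tumor. Nothing was left out of the out-of-frame totals, unlike the in-frame ones, and the arms were not compared by a test. The TCRBJ01-02 join gave 360 of the 478 out-of-frame TCRBV31 templates of 2.5e8 tumor 3. In 2.5e8 tumor 4 TCRBV31 held 62 of 546 out-of-frame templates. By templates TCRBV31 made up 0.690% to 3.47% of the out-of-frame total in tumors of mRBC-CTRL mice. The range was 0.787% to 11.4% in tumors of the 2.5e8 dose and 1.35% to 12.2% in those of the 1e9 dose, against 3.70% to 4.36%, 3.87% to 5.59% and 2.00% to 6.53% in day 7 blood of the mRBC-CTRL, 2.5e8 and 1e9 mice.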

How the data were processed

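Blood and tumor genomic DNA was amplified by the authors in a bias-controlled multiplex PCR (immunoSEQ) and sequenced, and sequences were collapsed and filtered. The deposited value is a template count per rearrangement, not normalized. The deposited fraction equalled count over library total in 81 of 81 libraries (tolerance 1e-09) and was not otherwise used. Genome build and aligner are not given in the sources used here.

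Shares were computed from deposited counts without 2 CDR3s. Groups were compared by 2-sided exact permutation tests and mice by sign-flip tests (100000 resamples from 10 values), Benjamini-Hochberg adjusted over segments. Junction measures used distinct rearrangements over the blood libraries of 27 mice, for segments with at least 5 in every mouse, and were adjusted over segments and 6 measures. Measures added later were adjusted among themselves. Clones were nucleotide rearrangements with at least 5 templates over both libraries. Replicates are separate mice. Same-mouse libraries were paired by mouse number. The median correlation of their deviations was 0.4 (days 65 and 73) and 0.583 (around EL4) in cured and 0.249 in naive mice.

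Named clones were the largest by group, the 5 most shared CDR3s, the lowest adjusted p of each contrast and the largest out-of-frame joins. Other clones were named after their values were seen. The members, lists and tests were chosen with earlier results of these data known. Procedures were tested on simulated data. The simulated shares held counting error without spread between mice and were called without adjustment, so they do not bear on the adjusted calls. Alternatives covered denominators, distinct rearrangements, single templates, largest clones, unresolved V calls, a log2 scale with a pseudocount of 0.1%, thinning, the replicate block, each experiment and each mouse left out. Intervals are Wilson 95%, and 3 templates were the limit for a count of 0. Both cover counting error only. Python 3.11.15, pandas 2.3.3, NumPy 2.4.6, SciPy 1.17.1 and matplotlib 3.10.9 were used.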

Additional observations from a re-analysis of the deposited data

Results flagged for a closer look

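The TCRBV31 share of mRBC-CTRL tumor 5, 16.8% of in-frame templates, stood far above the other control tumors (1.12% to 2.25%), with a gap of 0.928 of the group's range. Of 30 groups tested in this way 1 held such a sample, where chance gives about 1.5. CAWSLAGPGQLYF (10.8%) and another TCRBJ02-02 clone (3.798%) held most of that share, and by distinct rearrangements the tumor stood at 4.25%, against 3.24% to 3.79% in the other 4.

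The change in TCRBV31 share from day 65 to day 73 differed between cured and naive mice by 1.07 percentage points (2-sided exact permutation test, p = 0.0215, adjusted p = 0.398, n = 7 and 5). It was 1.38 by distinct rearrangements and -0.10 without rearrangements of 1 template.

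The in-frame minus out-of-frame share of TCRBV31 differed between tumor and blood of the same 15 mice by -1.35 percentage points (sign-flip permutation test, adjusted p = 0.0054), and by -1.45 without out-of-frame rearrangements within 3 edits of the OT-1 or lymphoma rearrangement.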

How the results depend on the processing

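Of 223 alternatives to the 12 share comparisons, 203 kept direction and side of the threshold, 4 passed it where the reported value had not and 16 turned direction; the cause was not tested. With all in-frame templates in the denominator, so that OT-1 and lymphoma templates lower the share, day 7 blood differed by -3.99 percentage points at 1e9 and -0.97 at 2.5e8 and tumor minus day 7 blood by -2.80, all past the threshold. The signs turned for 2.5e8 tumors (0.0271), cured day 73 minus 65 (-0.91), cured mice after minus before EL4 (0.0299), the change in cured minus naive mice (-0.85) and cured minus naive on day 65 (0.24) and day 73 (-0.60). By distinct rearrangements tumor minus blood was -1.68, past the threshold, and after minus before EL4 was 0.069. Without single-template rearrangements the values were -0.0318 (cured day 73 minus 65), 0.0646 (naive day 73 minus 65), -0.10 (cured minus naive change) and 0.27 (day 65). The 1e9 tumor difference was 0.12 on the log2 scale, and after minus before EL4 was 0.741 after thinning. Leaving out 1 mouse gave -2.31 to 1.87 (tumor, 1e9), -3.38 to 0.55 (tumor, 2.5e8; both turned without mRBC-CTRL mouse 5), -2.08 to -0.849 (tumor minus blood, lowest without mRBC-CTRL mouse 5) and -0.14 to 0.132 (after minus before EL4, turned without cured mouse 2). Of 32 alternatives to the junction results 31 kept the call, and the N base difference was 0.0917 out-of-frame.

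Clone counts of cured mice on day 73 moved from 7 to 4 with at least 10 templates and to 4 with all in-frame templates as denominator. Those lower after EL4 moved from 4 to 1 with at least 10 templates. In tumors they moved to 9 higher and 1 lower with the full denominator. Under these settings only TCRBV31 was counted, without the share over all segments.

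Mice of different arms share numbers but are different animals. Between cured and naive mice on day 65 the median correlation of deviations of same-numbered libraries was 0.238, with 3 of 5 pairs over 0.1. That is near the 0.249 of the same naive mice on days 65 and 73. In the other comparisons of different mice the median lay between -0.166 and 0.0624. With the replicate block the differences were -1.79 (day 7 blood, 1e9), -0.93 (2.5e8) and 1.05 (cured minus naive change), and the block, or its absence in the paired comparisons, changed no call. Libraries as small as 482 templates limit what can be seen in single clones.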
